A study of Mus musculus with 18 samples.

Results

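The snoRNA host genes are a class of long noncoding RNA genes that carry small nucleolar RNAs in their introns, and 10 of them were followed here in mouse muscle fibers: Gas5, Snhg1, Snhg3, Snhg5, Snhg6, Snhg7, Snhg8, Snhg11, Snhg12 and Dancr. Members were found by name, as every probe of the array that was not a control spot and whose gene name was one of these 10. Of the 55681 probe names on the array, 12 met this rule and covered 8 of the 10 genes. Snhg5 and Dancr were present only under older names, 2810026P18Rik with 2 probes and 2700023E23Rik with 1 probe, and these 3 probes are reported separately.

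RNA was measured in pools of single fibers from wild-type CD1 female mice that were 3 months old, with no treatment. Fibers were freed with collagenase from the EDL (extensor digitorum longus, a fast muscle), the soleus (a slow muscle) and the TA (tibialis anterior, a fast muscle), and each pool of 5 to 10 fibers was lysed and spun so that nuclei formed the pellet and cytoplasm the supernatant. This gave 6 groups of muscle and fraction with 3 arrays each, 18 arrays in all, from 9 mice. EDL and soleus arrays came from 3 pools of a pair of mice, the same pairs in both muscles and both fractions, whereas TA nuclei replicates each came from 1 mouse. TA cytoplasm replicates 1 and 2 shared a mouse with each other and each shared 1 with the nuclei replicate of its number, and replicate 3 shared none. The mouse common to TA cytoplasm replicates 1 and 2 and the mouse of TA nuclei replicate 3 also gave fibers to EDL and soleus pools. Values are log2 intensities of a 1-colour array after quantile normalization, a scale on which a difference of 1 is a doubling. A level is relative to the RNA of its own fraction, so a change in 1 RNA and an opposite change in the rest of that fraction's RNA cannot be told apart.

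A host gene is transcribed as a long precursor, from which the introns are cut out and trimmed into snoRNAs that guide methylation or pseudouridylation of ribosomal RNA in the nucleolus. The spliced exons leave as a polyadenylated RNA with little or no coding capacity, and the spliced RNA of several hosts, Gas5 among them, begins with an oligopyrimidine tract, is loaded on ribosomes and is destroyed by nonsense-mediated decay. The RefSeq annotation of the GRCm38.p6 assembly lists 8 snoRNA records inside Gas5 and 8 inside Snhg1, 4 inside Snhg12, 2 each inside Snhg3, Snhg5, Snhg7 and Snhg11, and 1 each inside Snhg6, Snhg8 and Dancr. The probes are named for the host RNA, and their places against the exons, introns and snoRNA records were not looked up.

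On the arrays, 58.6% to 71.2% of the spots that were not controls were well above background. Replicates correlated at r = 0.985 to 0.992 among nuclear arrays and at 0.906 to 0.971 among cytoplasmic arrays, so the cytoplasmic values were the more spread. The 5 RNAs used as nuclear markers (Xist, Kcnq1ot1, Neat1, Malat1 and Meg3) were all higher in nuclei over the 3 muscles, with a median difference of 2.78 on the log2 scale. All 5 were also higher in EDL (median 3.15) and in soleus (3.13) taken alone. In TA 4 were higher and 1 did not pass, with a median of 1.72, so the markers set the fractions less apart there. All EDL and soleus nuclear arrays lay on 1 slide and all EDL and soleus cytoplasmic arrays on another, so that fraction and slide cannot be told apart in these muscles. In TA, 1 cytoplasmic array (replicate 2) shared a slide with the 3 nuclear arrays. The within-slide values below set that single array against the 3 nuclear arrays and are given without a test.

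Over the 3 muscles, 6 of the 10 host genes were higher in nuclei than in cytoplasm (Snhg1, Snhg3, Snhg5, Snhg6, Snhg7 and Snhg12), 2 were lower (Snhg8 and Snhg11), Gas5 had probes in both directions and Dancr did not pass the test. Of the 12 probes with a member's name, 10 had enough values to be tested (at least 2 of 3 arrays in every group), and all 10 passed at an adjusted p under 0.05 in limma, 7 higher and 3 lower in nuclei. Among all 40541 probes tested, 31.2% were called higher and 38.6% lower in nuclei. The median difference was 1.01 over the 10 member probes and -0.08 over all probes tested. Of the probes with older names, 2 were tested and 1 was higher.

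In EDL, 4 member probes were higher and 2 lower in nuclei, against 20.0% and 26.5% of all probes tested. In soleus, 5 were higher and 1 lower, against 18.7% and 21.7% of all probes. In TA, 5 were higher and 3 lower, against 19.2% and 33.5% of all probes, and 2 of the 3 probes with older names were called higher, of which the second Snhg5 probe was not well above background on any TA array.

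**Figure D1:**
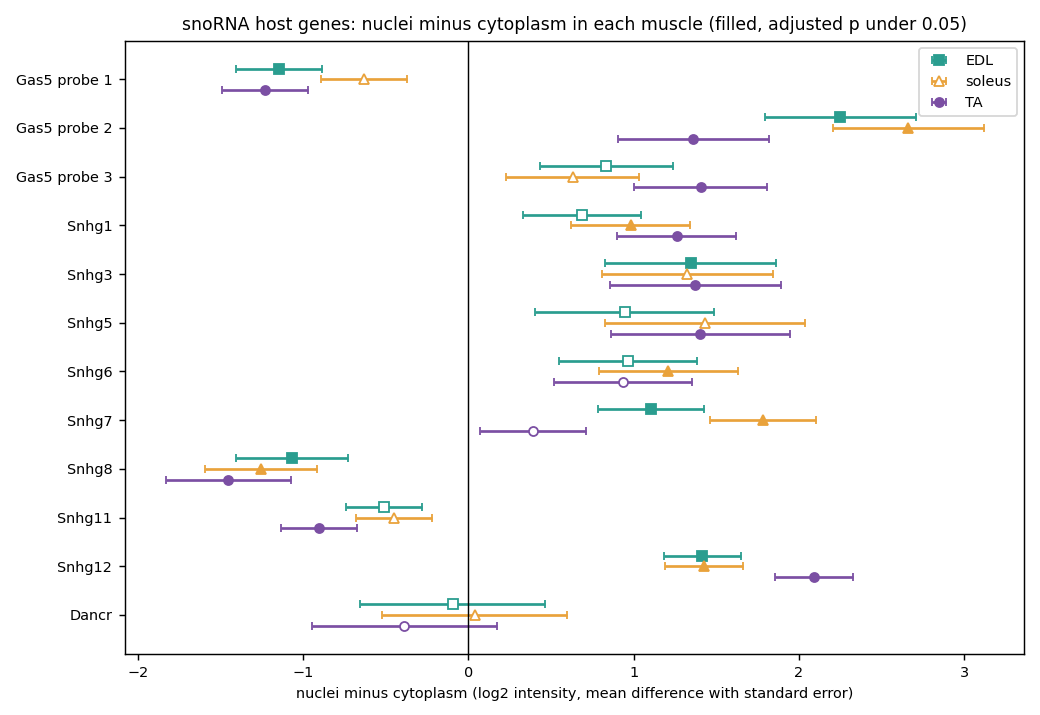
Nuclei minus cytoplasm difference (log2, horizontal axis) of each host probe in EDL (square), soleus (triangle) and TA (circle), with bars for the standard error and filled symbols for an adjusted p under 0.05. Gas5 probe 1, Snhg8 and Snhg11 lie left of 0 in all 3 muscles (without scaling between arrays Gas5 probe 1 and Snhg11 lie right of 0 in soleus), Dancr lies near 0 in EDL and soleus, and the other probes lie right of 0.

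These calls rested in part on the handling of slide and scale. With the slide as a random block, 1 member probe was called higher in EDL and 2 in soleus, and 0 were called lower in either. Over the 3 muscles the same block left Snhg6 at 1.22 with adjusted p = 0.0693, Snhg11 at -0.56 with adjusted p = 0.115 and Snhg5 at 1.62 with adjusted p = 0.0603. Without any scaling between arrays the median of all probes moved by 0.50 towards nuclei, and the share of higher among called probes went from 44.8% to 70.1% over the 3 muscles, from 43.0% to 69.5% in EDL and from 46.3% to 92.3% in soleus. Scaling to the 75th percentile moved the median by -0.22 and gave shares of 35.9%, 31.4% and 32.4%. With normexp background correction and an offset of 50 the differences of the dimmer probes over the 3 muscles shrank by more than 1.5 times and still passed, to 0.95 for Gas5 probe 2, 0.46 for Snhg1, 0.26 for Snhg5, 0.70 for Snhg3, 0.41 for Snhg7, 0.80 for Snhg12, -0.31 for Snhg8 and -0.33 for Snhg11.

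Gas5 (growth arrest specific 5), a host whose spliced RNA accumulates when growth stops and which can bind the glucocorticoid receptor, had the largest number of member probes, and they did not move together. The 3 probes were 60 bases long and assigned by the array design to 1 RefSeq record of Gas5. Probe 1 (A_51_P130544) lay at chr1:162966369-162966428, probe 2 (A_55_P2178378) at chr1:162967350-162967409 and probe 3 (A_66_P134809) at chr1:162968608-162968667, all on the plus strand of mm9. From probe 1 to probe 2 the genome and the record both ran over 981 bases, with no base removed. Between the starts of probe 2 and probe 3 the genome ran over 1258 bases and the record over 440, so 818 bases were spliced out. The sequences are shown because the 3 probes disagreed, with G and C in capitals to show how base composition falls from probe 1 to probe 3. The cause of the disagreement was not tested.

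Gas5 probe 1: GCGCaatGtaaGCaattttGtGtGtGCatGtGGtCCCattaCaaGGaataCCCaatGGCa
Gas5 probe 2: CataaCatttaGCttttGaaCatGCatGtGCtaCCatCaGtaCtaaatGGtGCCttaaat
Gas5 probe 3: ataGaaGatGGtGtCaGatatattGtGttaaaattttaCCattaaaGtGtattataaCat

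G and C made up 45.0% of probe 1, 35.0% of probe 2 and 23.3% of probe 3, beside a median of 43.3% over all probes on the array. None of the 3 shared a stretch of 30 bases with another probe.

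Gas5 probe 1 was lower in nuclei over the 3 muscles, in EDL and in TA, with a soleus difference that turned without scaling between arrays. In EDL its levels were 12.003, 12.43 and 12.35 in the 3 cytoplasmic replicates and 11.07, 11.18 and 11.09 in the 3 nuclear replicates. In soleus they were 12.08, 11.21 and 12.16 in cytoplasm and 11.20, 11.19 and 11.17 in nuclei. In TA they were 12.62, 12.29 and 11.64 in cytoplasm and 10.89, 11.03 and 10.93 in nuclei. The fractions overlapped in no muscle, although soleus cytoplasm replicate 2 came within 0.02 of the nuclear arrays. The difference was -1.004 ± 0.15 (SE) over the 3 muscles, a 2.01-fold lower level in nuclei (adjusted p = 2.58e-05). It was -1.15 ± 0.26 in EDL (adjusted p = 0.00225) and -1.23 ± 0.26 in TA (adjusted p = 0.00109), and -1.34 within the shared TA slide. The soleus difference of -0.63 ± 0.26 did not pass (adjusted p = 0.0643). It passed when soleus cytoplasm replicate 2 was left out (-0.93, adjusted p = 0.00473), and also without TA cytoplasm replicate 1 (adjusted p = 0.0395) or 3 (adjusted p = 0.0332). Without scaling between arrays the difference over the 3 muscles shrank to -0.29 (adjusted p = 0.0912) and the one in soleus turned to 0.45.

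The order of the group means for Gas5 probe 1 was EDL cytoplasm (12.26 ± 0.23, SD, n = 3), TA cytoplasm (12.18 ± 0.50), soleus cytoplasm (11.82 ± 0.53), soleus nuclei (11.19 ± 0.02), EDL nuclei (11.11 ± 0.06) and TA nuclei (10.95 ± 0.07). The ranges of the 3 cytoplasmic groups overlapped, as did those of soleus and EDL nuclei. TA nuclei lay below both of the other nuclear groups in all 3 replicates. The TA nuclear arrays lay on another slide than those of EDL and soleus, so muscle and slide cannot be told apart here.

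Gas5 probe 2 went the other way, and its fractions did not overlap in any muscle. In EDL it read 4.85, 5.47 and 3.78 in cytoplasm and 6.84, 7.02 and 6.99 in nuclei. In soleus it read 4.67, 5.78 and 3.86 in cytoplasm and 7.45, 7.44 and 7.41 in nuclei. In TA it read 4.34, 4.82 and 5.74 in cytoplasm and 6.21, 6.30 and 6.48 in nuclei. In EDL and in soleus 2 of the 3 cytoplasmic arrays were well above background, and in the other groups all 3 were. The difference was 2.09 ± 0.26 over the 3 muscles, 4.26-fold higher in nuclei (adjusted p = 4.72e-06) and 0.95 with normexp, with 2.25 ± 0.46 in EDL (adjusted p = 0.00101), 2.66 ± 0.46 in soleus (adjusted p = 0.000385) and 1.36 ± 0.46 in TA (adjusted p = 0.0205). The TA call was lost without TA cytoplasm replicate 1 (1.05, adjusted p = 0.0912), TA cytoplasm replicate 2 (1.29, adjusted p = 0.0579) or TA nuclei replicate 3 (1.28, adjusted p = 0.0572). Within the shared TA slide it was 1.51.

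Gas5 probe 3 was also higher in nuclei. Its EDL levels were 9.11, 8.71 and 8.31 in cytoplasm and 9.53, 9.57 and 9.53 in nuclei. Its soleus levels were 8.39, 9.33 and 8.63 against 9.47, 9.40 and 9.38. Its TA levels were 8.94, 7.10 and 6.90 against 9.06, 9.11 and 8.98. The nuclear arrays stood above the cytoplasmic arrays in every muscle, by less than 0.1 for the nearest arrays of soleus and TA. The difference was 0.96 ± 0.23 over the 3 muscles (1.94-fold, adjusted p = 0.00181) and 1.41 ± 0.40 in TA (adjusted p = 0.00845), with 1.95 within the shared TA slide. In EDL it was 0.83 ± 0.40 (adjusted p = 0.102) and in soleus 0.63 ± 0.40 (adjusted p = 0.225), and neither passed. Leaving out TA cytoplasm replicate 1 brought both past the threshold, at adjusted p = 0.00753 in EDL and 0.0354 in soleus. The differences themselves hardly moved (0.84 and 0.63), while the SE fell to 0.23, since the 6 groups share 1 estimate of the spread.

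**Figure D2:**
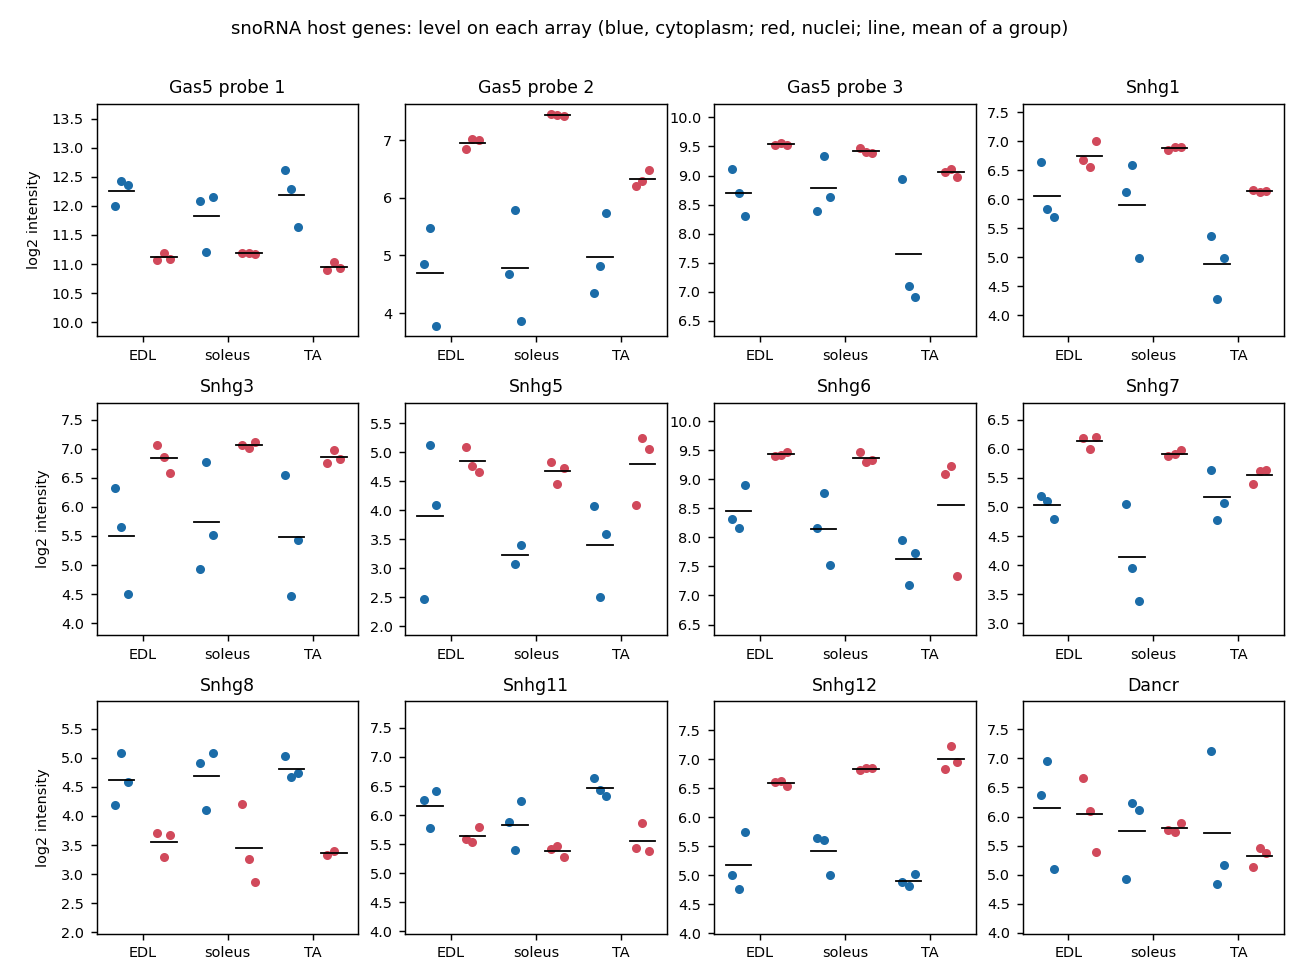
Level of each host probe on every array (log2 intensity, vertical axis, each panel with its own range) for cytoplasm (blue) and nuclei (red) in EDL, soleus and TA, with dots for arrays and a line for the mean of the group. The nuclear dots of Gas5 probe 1 lie below its cytoplasmic dots and those of Gas5 probes 2 and 3 lie above them in each muscle, and the cytoplasmic dots are the more scattered in most panels.

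The disagreement between the Gas5 probes was tested on the difference of the 2 probes on each array, in which the brightness of a probe cancels between fractions. Such a test was possible for 22953 pairs of probes of 1 gene name, of which 55.9% passed, so disagreement between probes of a gene was common on this array. Probe 1 minus probe 2 changed by -3.09 ± 0.37 from cytoplasm to nuclei (8.54-fold, adjusted p = 5.51e-06), and by -1.89 with normexp. This size exceeded that of 99.3% of all pairs tested, whose median size was 0.59, and 168 pairs were larger. Probe 1 minus probe 3 changed by -1.96 ± 0.26 (3.89-fold, adjusted p = 1.25e-05), more than in 94.1% of pairs. Probe 2 minus probe 3, which both rose in nuclei, changed by 1.13 ± 0.35 (2.19-fold, adjusted p = 0.0132), more than in 77.0% of pairs. That last call was lost with normexp background correction (0.17, adjusted p = 0.451), with the slide as a random block (0.72, adjusted p = 0.319) and with the nuclear arrays of a muscle averaged (adjusted p = 0.228).

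**Figure D3:**
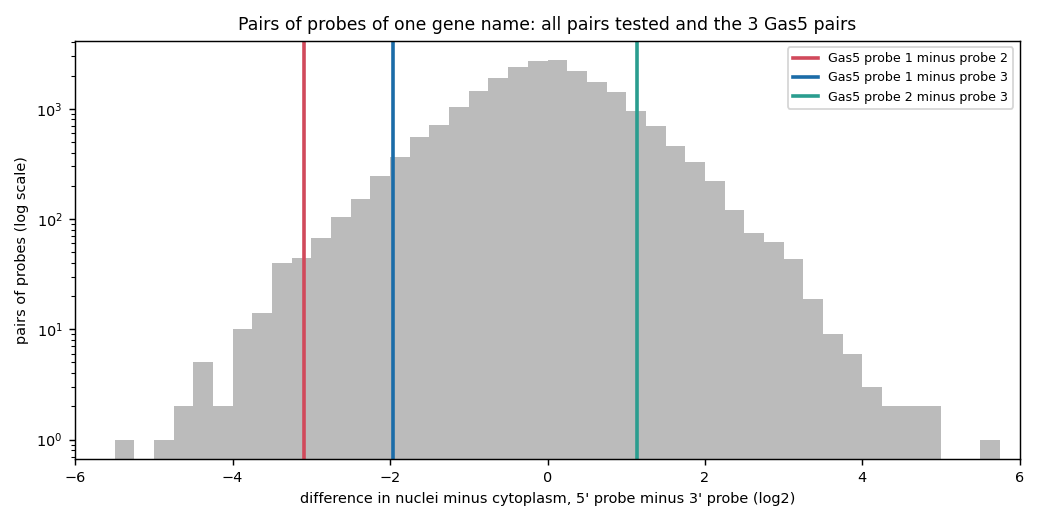
Histogram of the change in probe difference from cytoplasm to nuclei (log2, horizontal axis) for all 22953 pairs of probes of 1 gene name, with the number of pairs on a log axis and the 3 Gas5 pairs as vertical lines. The pair of probes 1 and 2 lies in the left tail at -3.09.

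Around the Gas5 probes the array also carried probes named only by a genomic interval, which the study's array uses to cover noncoding regions. On the strand of Gas5 there were 5 of them, within 2000 bases of the member probes, and their order along the genome is given here as the distance from the first one. The probe at 0 bases did not differ between fractions (-0.04 ± 0.16, adjusted p = 0.817), and neither did the one at 120 bases pass (-0.34 ± 0.19, adjusted p = 0.124). Between them, at 60 bases, A_30_P01026655 was lower in nuclei by -1.0 ± 0.13 (adjusted p = 7.27e-06), with 7.75 to 7.89 in EDL nuclei against 8.89 to 9.14 in EDL cytoplasm. Without scaling between arrays it was -0.23 over the 3 muscles (adjusted p = 0.154) and turned to 0.50 in soleus. At 2570 bases, past Gas5 probe 2, A_30_P01026422 was higher in nuclei by 1.48 ± 0.12 (adjusted p = 6.17e-08). The probe at 2630 bases could not be tested. Along the strand the order of the called probes was therefore lower at 60 bases, lower at 1283 (Gas5 probe 1), higher at 2264 (Gas5 probe 2), higher at 2570 and higher at 3522 (Gas5 probe 3).

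The probe at 2570 bases lay at chr1:162967656-162967715 on the plus strand of mm9. It is shown, with G and C again in capitals, because its difference passed limma's test for a dependence on muscle (adjusted p = 0.0402). That call was lost in 16 of 27 alternatives, and TA lay mostly on other slides than EDL and soleus.

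A_30_P01026422: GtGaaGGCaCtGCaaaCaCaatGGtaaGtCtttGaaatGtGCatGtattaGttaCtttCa

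Its levels were 8.19, 7.85 and 8.64 in EDL cytoplasm and 9.26, 9.28 and 9.04 in EDL nuclei. In soleus they were 8.79, 8.39 and 8.17 in cytoplasm against 9.55, 9.56 and 9.61 in nuclei. In TA they were 7.32, 6.93 and 7.18 in cytoplasm against 9.46, 9.61 and 9.45 in nuclei. The nuclear groups were near each other, and the TA cytoplasm arrays lay below all cytoplasmic arrays of EDL and soleus. The difference was 0.97 in EDL (adjusted p = 0.00175), 1.12 in soleus (adjusted p = 0.000785) and 2.36 in TA (adjusted p = 1.76e-06).

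On the strand opposite to Gas5, 10 interval probes were found after their values were seen. All 10 were higher in nuclei over the 3 muscles, beside 31.2% higher and 38.6% lower among all probes. They lay close together on 1 interval and some overlapped, so they are not separate observations. A_30_P01027433, described further below, did not pass in TA alone. In the cytoplasm 1 of them, A_30_P01026370 at 927 bases, was well above background on 2 of 9 arrays and on none of soleus, against all 9 nuclear arrays, so its difference is not given as a size. What these probes read is not named by the array beyond the interval and strand.

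**Figure D4:**
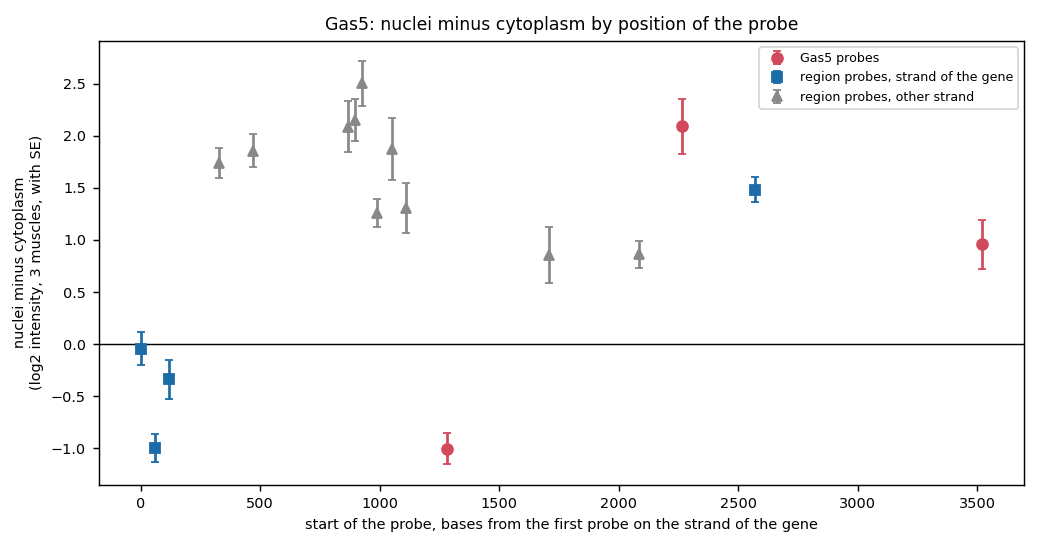
Nuclei minus cytoplasm difference over the 3 muscles (log2 with standard error, vertical axis) of each tested probe around Gas5, by distance in bases from the first interval probe along the Gas5 strand. Gas5 probes are red, interval probes of the same strand blue and those of the other strand grey; Gas5 probe 1 and the blue probe at 60 bases lie near -1.0 and all grey probes lie above 0.

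Snhg1, the host of Snord22 and other snoRNAs of the methylation-guiding kind, was read by 1 probe (A_55_P2117710, chr19:8798913-8798972, plus strand of mm9). In EDL it read 6.65, 5.83 and 5.69 in cytoplasm and 6.68, 6.55 and 7.00 in nuclei. The soleus values were 6.12, 6.58 and 5.00 against 6.85, 6.89 and 6.89. Those of TA were 5.37, 4.28 and 4.99 against 6.16, 6.12 and 6.15. The fractions overlapped in EDL through cytoplasm replicate 1 and were apart in soleus and TA. Over the 3 muscles Snhg1 was 1.97-fold higher in nuclei (0.98 ± 0.21, adjusted p = 0.000634), and in TA 2.40-fold (1.26 ± 0.36, adjusted p = 0.00826), with 1.86 within the shared TA slide. In EDL the difference was 0.69 ± 0.36 (adjusted p = 0.129), or 0.99 without EDL cytoplasm replicate 1 (adjusted p = 0.0469). In soleus it was 0.98 ± 0.36 (adjusted p = 0.0406), and 0.0501 with the pool of mice as a replicate block. The soleus call was lost without any one of 9 arrays (EDL nuclei replicate 1, soleus cytoplasm replicate 1 or 3, any soleus nuclei array or any TA nuclei array), with adjusted p from 0.0502 to 0.222. The difference was 0.53 without soleus cytoplasm replicate 3.

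Snhg6, the host of Snord87, had 1 probe (A_66_P122415, chr1:9932175-9932234, minus strand). Its EDL levels were 8.32, 8.15 and 8.91 in cytoplasm and 9.39, 9.42 and 9.46 in nuclei. Its soleus levels were 8.16, 8.76 and 7.53 against 9.46, 9.29 and 9.33. Its TA levels were 7.96, 7.18 and 7.73 against 9.10, 9.23 and 7.34. The 3rd TA nuclear array fell among the cytoplasmic ones, and the fractions were otherwise apart. Snhg6 was 2.05-fold higher in nuclei over the 3 muscles (1.04 ± 0.24, adjusted p = 0.00134) and 2.31-fold in soleus (1.21 ± 0.42, adjusted p = 0.0317). The soleus call was lost without soleus cytoplasm replicate 1 or 3 or any soleus nuclei array, at adjusted p from 0.0633 to 0.144. In EDL and TA the differences of 0.97 ± 0.42 (adjusted p = 0.0704) and 0.93 ± 0.42 (adjusted p = 0.0731) did not pass. Without TA nuclei replicate 3 they did, at adjusted p = 0.0148 in EDL and, with a difference of 1.54, at 0.00166 in TA, and within the shared TA slide the difference was 1.38.

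Snhg5 was read by 2 dim probes under its older name. The first (A_55_P2133568, chr9:88417150-88417209, minus strand) read 2.46, 5.13 and 4.09 in EDL cytoplasm against 5.09, 4.77 and 4.66 in EDL nuclei. In soleus cytoplasm it had values on 2 arrays, 3.08 and 3.39, neither well above background, against 4.83, 4.45 and 4.72 in nuclei. In TA it read 4.08, 2.51 and 3.59, none well above background, against 4.09, 5.24 and 5.06. The fractions overlapped in EDL only. Snhg5 was higher in nuclei over the 3 muscles (1.26 ± 0.33, adjusted p = 0.00316), and 75th percentile scaling ended that call (0.74, adjusted p = 0.0537). Against the lowest signal counted as well above background, the nuclei were at least 2.35-fold higher in soleus (adjusted p = 0.0731) and at least 2.15-fold higher in TA (adjusted p = 0.0415), where 2 of the 3 nuclear arrays were well above background. The TA call was lost without any one of 8 arrays (EDL nuclei replicate 2, any soleus nuclei array, TA cytoplasm replicate 2 or 3, or TA nuclei replicate 2 or 3), at adjusted p from 0.0501 to 0.176. With the replicate block the adjusted p in TA was 0.0696. In EDL the difference of 0.95 ± 0.54 (adjusted p = 0.166) rose to 1.57 without EDL cytoplasm replicate 2 (adjusted p = 0.0240), and in soleus 1.43 ± 0.61 passed without EDL cytoplasm replicate 1 (adjusted p = 0.0221) or 2 (adjusted p = 0.0360). The second probe (A_55_P2097398) was well above background on 1 of the 18 arrays, a soleus nuclei array. Its TA call (adjusted p = 0.0375) compared groups with no array well above background, so no size is given, and it was lost without any one TA nuclei array.

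Snhg3, the host of Snora73a and Snora73b, belongs to the hosts of pseudouridylation-type snoRNAs and had 1 probe. It read 6.32, 5.65 and 4.51 in EDL cytoplasm and 7.07, 6.85 and 6.59 in EDL nuclei. Soleus cytoplasm gave 4.93, 6.78 and 5.51 and soleus nuclei 7.06, 7.01 and 7.12. TA cytoplasm gave 6.54, 4.47 and 5.43 and TA nuclei 6.76, 6.97 and 6.82. All nuclear arrays lay above the cytoplasmic arrays of their muscle, while the cytoplasmic arrays were widely spread, from 4.47 to 6.54 in TA. Snhg3 was 2.54-fold higher in nuclei over the 3 muscles (1.35 ± 0.30, adjusted p = 0.000899). The differences in EDL (1.34 ± 0.52, adjusted p = 0.0442), soleus (1.32 ± 0.52, adjusted p = 0.0529) and TA (1.37 ± 0.52, adjusted p = 0.0362) were of like size and lay on both sides of the threshold. The EDL call was lost without any one of 13 arrays (EDL cytoplasm replicate 2 or 3, soleus cytoplasm replicate 3, TA cytoplasm replicate 3 or any nuclear array), at adjusted p from 0.0505 to 0.206, and fell to 0.86 without EDL cytoplasm replicate 3. The TA call was lost without TA cytoplasm replicate 2 (0.87, adjusted p = 0.181), TA cytoplasm replicate 3 or any TA nuclei array, and it was 2.38 within the shared TA slide.

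An interval probe on the strand of Snhg3, within 2000 bases of it (A_30_P01032280), moved the other way. It read 13.61, 13.94 and 13.86 in EDL cytoplasm against 13.12, 12.93 and 13.24 in EDL nuclei. It was lower in nuclei over the 3 muscles (-0.87 ± 0.12, adjusted p = 1.29e-05) and in EDL (-0.71), soleus (-0.87) and TA (-1.03) taken alone. Without EDL nuclei replicate 2 the EDL difference was -0.63 (adjusted p = 0.0530), without scaling between arrays the EDL and soleus calls were lost (-0.50 and -0.16), and within the shared TA slide it was -0.75. The difference between these probes was not tested, since they carry different names.

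Snhg7, the host of Snora17 and Snora43, had 1 probe (A_52_P199776, chr2:26492862-26492921, minus strand) and gave the lowest p among the members for a dependence on muscle, which did not pass. In EDL it read 5.2, 5.1 and 4.80 in cytoplasm and 6.19, 6.00 and 6.21 in nuclei. In soleus it read 5.06, 3.96 and 3.39 in cytoplasm, of which 1 array was well above background, and 5.87, 5.90 and 5.98 in nuclei. TA arrays gave 5.64, 4.78 and 5.07 against 5.40, 5.62 and 5.64. The fractions were apart in EDL and soleus and overlapped in TA. Snhg7 was 2.13-fold higher in nuclei over the 3 muscles (1.09 ± 0.19, adjusted p = 8.73e-05), 2.15-fold in EDL (1.10 ± 0.32, adjusted p = 0.0110) and 3.44-fold in soleus (1.78 ± 0.32, adjusted p = 0.000559). In TA the difference was 0.39 ± 0.32 (adjusted p = 0.323), or 0.77 within the shared slide.

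Snhg12, the host of Snora16a, Snora44, Snora61 and Snord99, gave the lowest adjusted p of the member probes. Of its 2 probes, one (A_55_P2338160, chr4:131866668-131866727) had no value on any of the 18 arrays. The other (A_66_P100249, chr4:131866864-131866922, plus strand) is printed with G and C in capitals because of this.

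Snhg12 probe: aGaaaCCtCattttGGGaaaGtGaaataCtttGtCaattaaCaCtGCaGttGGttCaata

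It read 5.01, 4.77 and 5.75 in EDL cytoplasm and 6.60, 6.63 and 6.54 in EDL nuclei. In soleus the levels were 5.64, 5.6 and 5.00 against 6.82, 6.85 and 6.85. In TA the levels were 4.89, 4.82 and 5.02 against 6.83, 7.22 and 6.96. All 9 nuclear arrays lay above all 9 cytoplasmic arrays. Snhg12 was 3.13-fold higher in nuclei over the 3 muscles (1.64 ± 0.14, adjusted p = 6.25e-08), and 2.67-fold in EDL (adjusted p = 0.000211), 2.69-fold in soleus (adjusted p = 0.000278) and 4.26-fold in TA (2.09 ± 0.23, adjusted p = 8.82e-06), with 2.18 within the shared TA slide.

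Snhg8, the host of Snora24, was lower in nuclei. Its probe (A_55_P2211952, chr3:123210486-123210545, minus strand, 40.0% G and C) is shown with G and C in capitals as the host read on the cytoplasmic side.

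Snhg8 probe: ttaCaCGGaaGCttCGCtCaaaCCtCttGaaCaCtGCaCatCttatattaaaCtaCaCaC

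It read 4.19, 5.09 and 4.59 in EDL cytoplasm and 3.70, 3.30 and 3.67 in EDL nuclei, where no array was well above background. In soleus it read 4.91, 4.1 and 5.08 against 4.21, 3.26 and 2.86, with 2 cytoplasmic arrays and 1 nuclear array well above background. In TA it read 5.04, 4.66 and 4.73 against 3.32 and 3.4 on the 2 nuclear arrays with a value, neither well above background. The fractions overlapped in soleus, through 1 array of each, and were apart in EDL and TA. Against the lowest signal counted as well above background, cytoplasm was at least 2.03-fold higher in EDL (adjusted p = 0.0187), where 2 cytoplasmic arrays were well above background, and at least 2.51-fold higher in TA (adjusted p = 0.00520). In soleus the difference was -1.25 ± 0.34 (adjusted p = 0.00940), and over the 3 muscles -1.26 ± 0.20 (adjusted p = 7.19e-05). The EDL call was lost without EDL cytoplasm replicate 2 (-0.84, adjusted p = 0.0854) or EDL nuclei replicate 2 (-0.93, adjusted p = 0.0693), and the soleus call without soleus nuclei replicate 3 (-0.96, adjusted p = 0.0518). Without TA nuclei replicate 1 or 2 the probe could not be tested in TA or over the 3 muscles.

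Snhg11 had a probe nearer the start of its gene (A_55_P2047809, chr2:158206508-158206567, plus strand) and one 5046 bases further along (A_51_P267933, chr2:158211554-158211613). The first read 6.25, 5.78 and 6.42 in EDL cytoplasm against 5.59, 5.54 and 5.79 in EDL nuclei. In soleus the values were 5.87, 5.40 and 6.24 against 5.41, 5.46 and 5.28. In TA they were 6.64, 6.43 and 6.33 against 5.43, 5.87 and 5.39. The fractions were apart in TA only. It was 1.54-fold lower in nuclei over the 3 muscles (-0.62 ± 0.13, adjusted p = 0.000633) and 1.87-fold lower in TA (-0.91 ± 0.23, adjusted p = 0.00387), with -0.87 within the shared TA slide. In EDL (-0.51 ± 0.23, adjusted p = 0.0788) and soleus (-0.45 ± 0.23, adjusted p = 0.130) it did not pass. It passed in EDL without EDL cytoplasm replicate 2 (-0.70, adjusted p = 0.0321) or soleus cytoplasm replicate 2 (adjusted p = 0.0441), and in soleus without soleus cytoplasm replicate 2 (-0.67, adjusted p = 0.0228). Without scaling between arrays the difference was -0.17 over the 3 muscles (adjusted p = 0.354) and turned to 0.51 in soleus. The second probe was not well above background except on 2 TA cytoplasm arrays. In TA it read 4.58, 4.28 and 3.1 in cytoplasm and 4.37 on the 1 nuclear array with a value, and it was not tested.

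Dancr, a host of Snora26 first described as an RNA that holds back differentiation, did not pass in any muscle through the probe of its older name (A_55_P2095118, chr5:74490275-74490334, plus strand). In EDL it read 6.37, 6.96 and 5.1 in cytoplasm and 6.66, 6.09 and 5.39 in nuclei. Soleus arrays read 4.93, 6.24 and 6.11 against 5.77, 5.74 and 5.89. TA arrays read 7.13, 4.84 and 5.16 against 5.13, 5.45 and 5.38. The fractions overlapped in all 3 muscles, and the cytoplasmic replicates were the more spread, from 4.84 to 7.13 in TA. The difference over the 3 muscles was -0.15 ± 0.32 (adjusted p = 0.695). An interval probe of the same 60 bases gave 0.02 ± 0.39 (adjusted p = 0.963).

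Along the strand of Dancr, 13 interval probes lay within 2000 bases of this probe. Counted from the first of them, the probe at 60 bases (A_30_P01024631) was higher in nuclei by 0.99 ± 0.20 (adjusted p = 0.000348). At 599 and 663 bases the probes were lower by -0.96 ± 0.40 (adjusted p = 0.0421) and -0.70 ± 0.18 (A_30_P01032580, adjusted p = 0.00322). The rest did not pass or were not tested. At 663 bases the direction turned without scaling between arrays (0.078), and with the slide as a random block both A_30_P01024631 (adjusted p = 0.137) and A_30_P01032580 (adjusted p = 0.334) lost their calls. The probe at 599 bases ranged from 6.33 to 9.15 in cytoplasm and from 5.96 to 8.00 in nuclei. Its call was not followed through the alternatives.

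**Figure D5:**
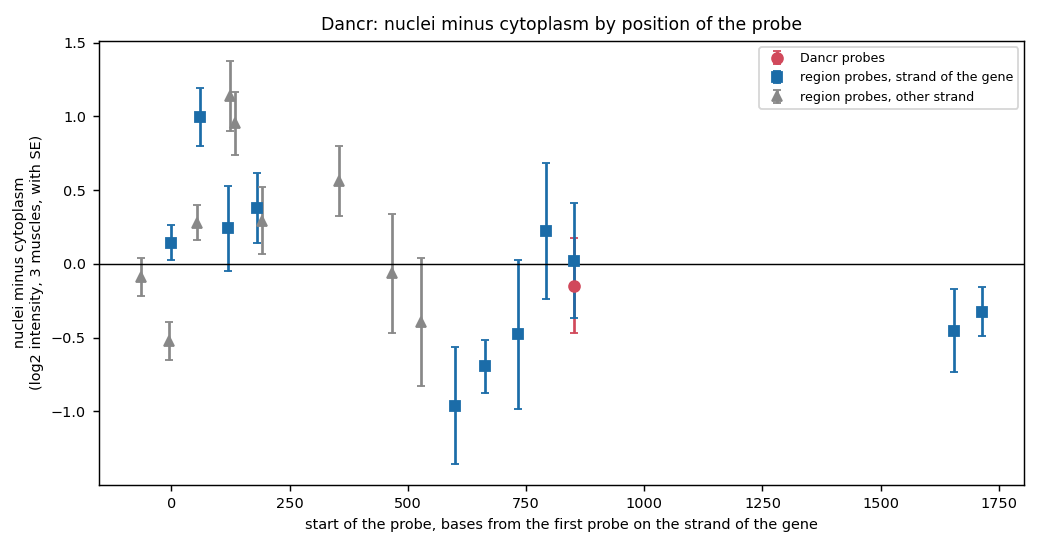
Nuclei minus cytoplasm difference over the 3 muscles (log2 with standard error, vertical axis) of each tested probe around Dancr, by distance in bases from the first interval probe along the Dancr strand. The Dancr probe is red and lies at -0.15, interval probes of the same strand are blue and those of the other strand grey.

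Over all regions within 2000 bases of host probes, 20 interval or neighbouring-gene probes lay on the strand of the host and 17 were tested, with 2 higher and 4 lower in nuclei. On the other strand 24 of 26 were tested, with 17 higher and 1 lower, beside 31.2% higher and 38.6% lower among all probes. The higher ones included the 10 probes opposite to Gas5, which lay on 1 interval and are not separate observations.

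Between soleus and EDL, no member probe passed in nuclei, where 1.56% of all 44568 probes tested did, and none was under 0.05 before adjustment, with 0.889 as the lowest adjusted p. None passed in cytoplasm either, where 1.42% of 45470 probes did, and 1 was under 0.05 before adjustment: Snhg7, at -0.90 ± 0.32 in soleus minus EDL cytoplasm (adjusted p = 0.212). Leaving out soleus cytoplasm replicate 1 gave 1 call among the member probes in cytoplasm. With so few calls among all probes, these counts of 0 say nothing particular about the host genes. The spread in the nuclear test was shared with the more scattered cytoplasmic arrays, so small differences between nuclear groups could be missed. The nuclear ranges of soleus and EDL were apart for Gas5 probe 2 and Snhg12, among others. They overlapped for Gas5 probe 1 and Snhg3, among others. The number of calls among all probes also moved with single arrays. In nuclei it was 694, between 338 and 369 without any one EDL or soleus nuclear array and 1150 without TA cytoplasm replicate 1. In cytoplasm it was 647, and it became 309 without EDL cytoplasm replicate 2, 422 without soleus cytoplasm replicate 2, 429 without soleus nuclei replicate 1 and 1227 without TA cytoplasm replicate 1.

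Whether the nuclei minus cytoplasm difference depended on muscle was tested by the interaction, which 1.57% of all probes passed. These 635 calls became 103 to 304 without any one nuclear array or without TA cytoplasm replicate 2, and 1031, 1571 and 1733 without soleus cytoplasm replicate 3, TA cytoplasm replicate 1 and TA cytoplasm replicate 3. None of the 10 member probes did (1 was under 0.05 before adjustment). Snhg7 had the lowest adjusted p, 0.225, with differences of 1.10, 1.78 and 0.39 in EDL, soleus and TA, and passed without soleus cytoplasm replicate 1 (adjusted p = 0.0304). For Gas5 the adjusted p was 0.577, 0.476 and 0.704 for probes 1, 2 and 3, and for Snhg3, whose 3 differences were nearly equal, 0.999. Without scaling between arrays 4 member probes passed, and the median of all probes moved by 0.97 in soleus, 0.40 in EDL and 0.06 in TA.

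The 5 genes whose probe followed Gas5 probe 1 most closely over the 18 arrays, among 35525 probes with a value on every array, were X76971 (Pearson r = 0.987), ENSMUST00000089098 (0.986), Ccdc142 (0.985), Zfp827 (0.985) and Gm11686 (0.984), named as on the array. The 18 arrays share slides and pools, and all 5 genes were lower in nuclei, by -0.78 to -1.37.

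Of 12 other noncoding snoRNA hosts, 3 were found by name and tested over the 3 muscles, and 2 were higher in nuclei: Snhg9 by 1.27 ± 0.36 (adjusted p = 0.00647) and 1110038B12Rik by 1.07 ± 0.12 (adjusted p = 1.53e-06). Snhg10 was at -0.27 ± 0.30 (adjusted p = 0.427). Of 31 tested hosts whose exons encode proteins, mostly of the ribosome and of translation, 16 were higher and 4 lower, with a median of 0.42, beside 31.2% higher and 38.6% lower among all probes. Those named by size were Eif4a2, a translation initiation helicase, at 0.98 ± 0.11, Gnb2l1, a protein of the small ribosomal subunit, at 0.74 ± 0.30, and Rpl4, of the large subunit, at 0.73 ± 0.10.

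Of 14 messenger RNAs for the proteins of snoRNA particles and their assembly, 5 were higher and 2 lower, with a median of 0.31, and the shares among all probes were again 31.2% and 38.6%. Nufip1, an assembly factor, was lower by -2.28 ± 0.20 (adjusted p = 1.21e-07), whereas Nop58, a core protein of methylation-guiding particles, was higher by 1.62 ± 0.30 and Gar1, a core protein of pseudouridylation particles, by 0.75 ± 0.13. Nonsense-mediated decay is the pathway that degrades the spliced RNA of several hosts. Of 12 tested genes for it, 8 were higher in nuclei and 4 did not pass, with a median of 0.61. The higher ones included Smg1, the kinase of the pathway, at 2.35 ± 0.10, Upf3b at 1.84 ± 0.26 and Smg6, its endonuclease, at 1.52 ± 0.37.

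Markers of the labelled tissue were present: all 13 myofiber genes were well above background in every group, and 11 were higher in nuclei. Markers of other cells moved with the fraction too. Over the 3 muscles all 9 endothelial markers were higher in nuclei, as were 31.2% of all probes. Taken alone, EDL gave 7 of the 9 as higher, soleus 3 and TA 8, against 20.0%, 18.7% and 19.2% of all probes. Summed intensities were 3539 to 3768 in EDL cytoplasm and 6893 to 7443 in EDL nuclei. In soleus they were 3435 to 5857 in cytoplasm and 6395 to 6681 in nuclei. Among fibroblast markers 7 of 8 were higher and among Schwann cell markers 5 of 7 were higher and 1 lower. In contrast, 5 of 8 macrophage markers and 3 of 5 erythroid markers were lower, beside 38.6% of all probes. In TA alone the erythroid markers were 2 higher and 1 lower, beside 19.2% higher and 33.5% lower among all probes. Their summed intensities were 13516 to 14610 in TA nuclei and 9107 to 11777 in TA cytoplasm. Of 6 satellite cell markers tested, 2 were higher and 1 lower, and of the defining genes Myf5 and Calcr were not well above background in any group and Pax7 in neither EDL group. The part of these cells in the values of the host genes was not tested.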

How the data were processed

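RNA of each fraction was labelled by the authors with Cy3 using the Low Input Quick Amp kit, which primes from poly(A) tails, and hybridized to a 1-colour Agilent gene expression array with 1 sample per array. The deposited scanner files were made with Agilent Feature Extraction 10.7.3.1 and hold an intensity per spot (processed signal), with flags for spots positive and significant and for spots well above background. Per the file headers and columns, probe positions are those of mm9. A deposited series matrix holds the authors' normalized intensities for 3687 features and was used as an alternative only. These intensities were put on the log2 scale here. On that scale the columns of the matrix correlated with the scanner values at r = 0.995 to 0.9996 and had medians of 5.71 to 5.73. The scale of the matrix was read from this match.

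Here, as in the study's methods, spots not positive and significant were set missing, and intensities were put on the log2 scale, quantile-normalized and averaged by probe name (59305 spots to 55681 names, without 3671 control spots). Outlier flags took 0.263% to 0.568% of spots. Differences were tested in limma 3.58.1 (R 4.3.3) on 6 group means with 12 residual degrees of freedom, two-sided, with Benjamini-Hochberg adjustment over all probes with at least 2 of 3 values in each group compared. The 6 groups shared 1 estimate of the spread of a probe, so leaving out an array could also move the adjusted p of other groups. The methods' own test, Significance Analysis of Microarrays, was run as an alternative. A probe not well above background on any array of a group was given a bound against the lowest signal well above background, at 2.85 to 3.63 on the log2 scale. The number of arrays limits the precision.

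EDL and soleus numbers pair the samples, since the labels give the same mice to a number in both muscles and fractions. Deviations of same-numbered arrays correlated at r = -0.111 to 0.101 over 18 pairs. TA numbers pair the fractions only in part: replicates 1 and 2 share a mouse between fractions and replicate 3 does not. Other alternatives were 75th percentile scaling, no scaling, normexp background correction with an offset of 50, a filter on probes well above background, the slide as a random block, nuclear arrays averaged per muscle, TA within a slide, and each array left out.

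Members and lists were chosen with earlier results of these data known. The named genes were the 10 hosts with all their probes, interval probes on their strand within 2000 bases, the 3 genes of each list with the largest change among those that passed, and the 5 genes most like the brightest Gas5 probe. Probe sequences and positions are those of the array files, and snoRNA records are from RefSeq (GRCm38.p6). Sequences are printed for the few probes the results turn on, and 1 further sequence and its position are not reported here.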

Additional observations from a re-analysis of the deposited data

Results flagged for a closer look

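The nuclei minus cytoplasm difference depended on muscle for 2 probes of the Gas5 region, by limma's test of the interaction. For A_30_P01026422, on the Gas5 strand, the adjusted p was 0.0402, and the differences were 0.97 (EDL), 1.12 (soleus) and 2.36 (TA). The result was no longer past the threshold in 16 of 27 alternatives, among them the replicate block (0.108), the slide as a random block (0.305), normexp (0.0539), the filter on probes well above background (0.0520) and 11 single arrays left out (0.0523 to 0.113).

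For A_30_P01027433, on the other strand, the adjusted p was 0.0284, and nuclei were higher by 0.85 for EDL fibers (adjusted p = 0.00626) and by 1.75 for soleus fibers (adjusted p = 3.85e-05), against -0.01 for TA fibers (adjusted p = 0.976). Its levels were 6.53, 6.58 and 6.35 in EDL cytoplasm against 7.30, 7.33 and 7.38 in nuclei. In soleus they were 6.00, 6.50 and 5.97 against 7.94, 7.93 and 7.85. In TA they were 6.73, 6.30 and 5.81 against 6.28, 6.53 and 6.01, with the fractions overlapping. The interaction was lost in 11 of 26 alternatives, with 0.113 for the slide as a random block and 0.0526 to 0.0823 for 9 single arrays left out. TA lay mostly on other slides than EDL and soleus, and muscle and slide cannot be told apart in this test.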

How the results depend on the processing

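The values of single probes under an alternative numbered 2404, of which 2141 kept their direction and side of the threshold. A call was lost by 193 and gained by 48, and 22 changed direction. A call can change through the spread that the 6 groups share, and other causes were not tested. Averaging the nuclear arrays leaves fewer samples and gave 4 higher member probes over the 3 muscles (7 otherwise, with Gas5 probe 3, Snhg1 and Snhg3 lost, and Snhg11 lost among the lower ones), 0 higher and 0 lower in EDL, 0 and 0 in soleus, and 1 higher and 0 lower in TA. With the slide as a random block EDL gave 1 higher and 0 lower, and soleus 2 and 0. Without scaling there was 1 lower over the 3 muscles (3 otherwise), 7 higher (4) and 1 lower (2) in EDL, 0 lower in soleus (1) and 4 interaction calls (0), and 75th percentile scaling gave 3 lower in soleus. The filter on probes well above background gave 1 lower in EDL and 0 in soleus. Significance Analysis of Microarrays gave 1 higher in TA (5). The deposited matrix, with 7 of the 12 member probes, gave 1 lower over the 3 muscles, 1 in EDL and 1 in TA.

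With 1 array left out, member calls over the 3 muscles were 7 to 7 higher and 2 to 3 lower, in EDL 3 to 5 and 1 to 3, in soleus 3 to 7 and 0 to 3, and in TA 3 to 5 and 2 to 3. Soleus minus EDL gave 0 to 0 in nuclei and 0 to 1 in cytoplasm, the interaction 0 to 1 and the Gas5 pairs 3 to 3. The replicate block, which pairs EDL and soleus by pool and TA by number (TA replicate 3 shares no mouse), ended the soleus call of Snhg1 (adjusted p = 0.0501) and the TA calls of both Snhg5 probes (0.0696 and 0.0878), changed no other member call, and gave 363 against 647 probes in soleus minus EDL cytoplasm and 189 against 635 in the interaction.

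Direction changed for Dancr over the 3 muscles (0.30 without scaling, 0.45 with the slide block, 0.24 in the deposited matrix, and -0.32 to 0.089 with an array left out, the highest without TA cytoplasm replicate 1), in EDL (0.31, 0.59 and 0.30 under the same settings, -0.62 to 0.32 with an array left out), in soleus (-0.22 at the 75th percentile, -0.38 to 0.28 with an array left out) and in TA (0.034 with the slide block, 0.32 within a scan day, 0.48 within a slide, 0.11 in the deposited matrix, -0.83 to 0.32 with an array left out). Without scaling it also changed for A_30_P01032580 (0.078) and, in soleus, for Gas5 probe 1 (0.45), Snhg11 (0.51) and A_30_P01026655 (0.50).

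Over all probes, the slide block gave 15722 calls over the 3 muscles (28296 otherwise), 6326 in EDL (20328), 3866 in soleus (17594), 1065 (694) and 1155 (647) in soleus minus EDL nuclei and cytoplasm, 34 in the interaction (635) and 7549 pairs (12834). Averaging nuclear arrays gave 16181, 3158, 1408, 0, 41, 0 and 5694, and 4391 in TA (23018). No scaling gave 27107 in soleus, 1555 in soleus minus EDL nuclei and 14766 in the interaction, normexp 1335 and 1478 in the last 2, and the filter on probes well above background 7733 pairs. The deposited matrix, with 3668 probe names, gave 2049, 1284, 1185 and 1478 over the 3 muscles, in EDL, soleus and TA, 76 and 22 in soleus minus EDL nuclei and cytoplasm, 87 in the interaction and 619 pairs. The share of higher calls in soleus minus EDL went from 62.8% to 90.7% in nuclei and from 60.0% to 24.3% in cytoplasm without scaling. Snhg5, Snhg8 and the second Snhg11 probe lay near background, which limits what their values can show.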
